A study of Mus musculus with 10 samples.

Results

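The genes described here are those that make retinoic acid, carry it to the nucleus and respond to it. They are the retinol dehydrogenase *Rdh10*, the retinaldehyde dehydrogenases *Aldh1a1* and *Aldh1a2*, the binding protein *Crabp2*, the retinoic acid receptors *Rara*, *Rarb* and *Rarg*, and the retinoid X receptors *Rxra*, *Rxrb* and *Rxrg*. They were chosen by name, not by their values, and all 10 were found among the 23195 genes of the table analysed. The libraries are polyA RNA-seq of hearts from male mouse embryos at embryonic day 13.5 (E13.5), labelled with the strain C57BL6/J. One group holds 5 wild-type (wildtype) libraries. The other holds 5 *Nos1ap* null libraries, homozygous for the tm1d allele, which lacks exon 4 of *Nos1ap* in every cell and carries neither the *lacZ* nor the *neo* cassette of the original targeted allele. *Nos1ap* encodes an adaptor protein of neuronal nitric oxide synthase. The allele came from C57BL/6N embryonic stem cells, was converted with CMV-Cre and was kept by backcrossing to C57BL/6J. Whole heart tissue was used, so each library mixes all cell types of the organ, and fewer cells of a type cannot be told apart from less RNA per cell. Which embryos shared a litter is not given in the sources used here.

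Retinoic acid is made from vitamin A by successive oxidations. RDH10 turns retinol into retinaldehyde, and the ALDH1A enzymes turn retinaldehyde into retinoic acid. In the nucleus it binds RAR proteins, which act as pairs with RXR proteins on DNA elements built from direct repeats of a short half-site. In the developing heart ALDH1A2 is best known as an enzyme of the epicardium, the outer layer of the heart, and retinoic acid is known there for its part in the growth of the ventricular wall.

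The values are normalized counts, that is the read pairs of a gene after division by the library's size factor, which corrects for unequal depth. The counts of single libraries were recovered from the group means of the table, and libraries are numbered from 1 to 5 by falling size factor within a genotype. These are not the replicate numbers of the labels. The read pairs assigned to the genes analysed were estimated at 11328000 to 14023000 per library, which is not the number sequenced. *Nos1ap*, the targeted gene, had 126 to 161 normalized counts in wild-type libraries and 31.1 to 44.4 in null libraries (log2 fold change −1.83, limma adjusted p = 5.10e-08). The 8 cardiomyocyte markers examined, among them *Tnnt2* and *Myh6*, had authors' means of 10622 (*Myl7*) to 129864 (*Myh7*) normalized counts. Wild-type library 3 stood apart from the others. Its summed level of the 5 neuronal markers with recovered counts was 1031 normalized counts, against 80.7 to 104.5 in the other wild-type libraries and 85.5 to 96.6 in null libraries. For 4 lung epithelium markers its sum was 43.8, against 6.19 to 9.31 in the other wild-type libraries. For 3 skeletal muscle markers it was 33.6 against 2.61 to 5.81, and for smooth muscle *Myh11* 205.6 against 32.9 to 69.1. Its sum of 5 fetal liver markers was the lowest, 25.4 against 33.9 to 93.9. Sums of erythroid, myeloid, epicardial and cartilage markers lay within the range of the other wild-type libraries. Since this library stood apart, results are also given without it.

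None of the 10 genes passed the study's threshold of a false discovery rate (FDR) of 1% and an absolute log2 fold change over 1. Over all 10735 protein-coding genes tested, 3 passed by limma, which is 0.0279%. The log2 fold changes (null relative to wild type, on normalized counts plus 1) ran from −0.71 for *Crabp2* to 0.35 for *Aldh1a1*. Over all 10735 genes tested, 5579 were below 0, and the median was −0.0041. Of the 10 genes, 8 were below 0, with a median of −0.049. The median was −0.086 without wild-type library 2 and −0.025 without wild-type library 3, the lowest and highest when 1 library was left out. *Crabp2* alone had an unadjusted p under 0.05. Of all genes tested, 372 had such a p, or 3.47%. In each of the 10 genes the values of the genotypes overlapped. Among all genes tested, 87 (0.81%) had groups that did not overlap, 50 of them higher and 37 lower in null hearts. With so small a share, overlap in all 10 is no contrast to the other genes.

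**Figure D1:**
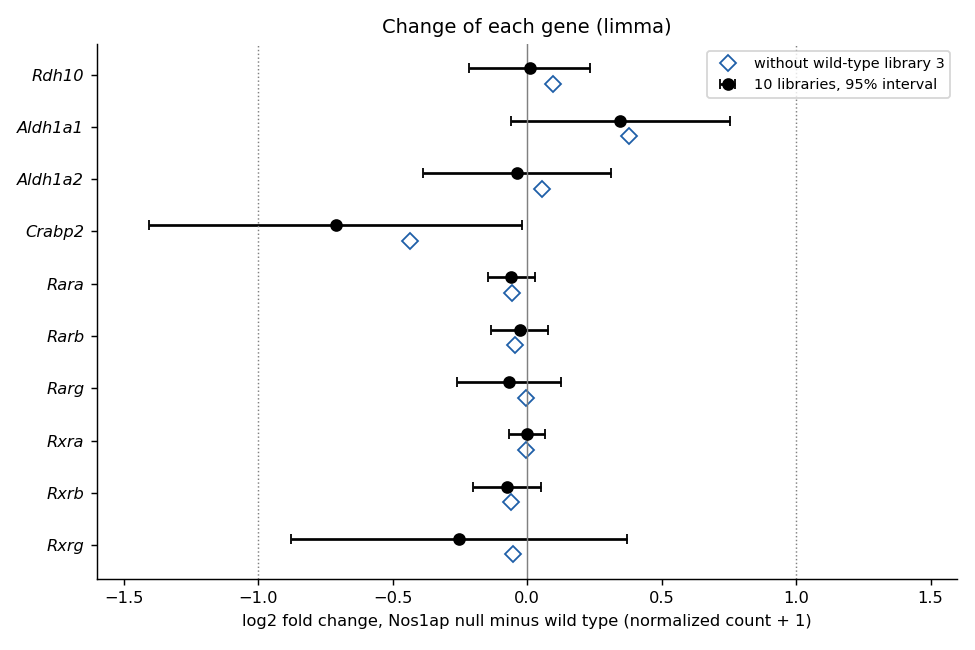
The log2 fold change of each gene, *Nos1ap* null minus wild type, with its 95% interval from limma over 10 libraries (black), and the same without wild-type library 3 (open diamonds). Dotted lines mark the threshold of 1 in either direction; the interval of *Crabp2*, −1.41 to −0.018, was the only one that did not reach 0.

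Of the enzymes, *Rdh10* did not differ detectably between the genotypes. It lies at chromosome 1, 16105774 to 16133734, plus strand (GRCm38, GENCODE M21, as are the positions of the other genes). Its wild-type libraries had 131, 110.4, 164, 122 and 124 normalized counts, and its null libraries had 117, 118, 149, 141 and 129. The means were 130.3 ± 20.2 in wild type and 131 ± 14.2 in null hearts (SD, n = 5 each). The highest value was that of wild-type library 3, and the other 4 wild-type values lay within or just below the range of null hearts. Its log2 fold change was 0.0095, with a 95% interval of −0.21 to 0.23, and was 0.095 without wild-type library 3.

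*Aldh1a1* was the member with the largest positive log2 fold change, but the difference stayed within the spread of the libraries. It lies at chromosome 19, 20492715 to 20643465, plus strand. The wild-type values were 46.1, 30.98, 39.7, 25.8 and 42.4 normalized counts. The null values were 43.2, 68.4, 50.4, 35.4 and 40.3. Null libraries 2 and 3 lay above the wild-type range, and the other 3 lay inside it. The log2 fold change was 0.35 with a standard error of 0.19 (limma, unadjusted p = 0.0896, adjusted p = 0.998; exact permutation p = 0.159). It was 0.21 without null library 2 and 0.44 without null library 4. With so few reads, 25 to 68 read pairs per library, a change of up to 1.69-fold was inside the 95% interval. Null library 2 also had the highest summed level of the 3 erythroid markers with recovered counts, 454.5 normalized counts against 88.7 to 300.3 in the other 9 libraries. The next highest sum, 300.3, was that of wild-type library 4, which had the lowest *Aldh1a1* value (25.8). The part of red blood cells in the *Aldh1a1* values was not tested.

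*Aldh1a2*, the enzyme of the epicardium (chromosome 9, 71215789 to 71296243, plus strand), was far more abundant per exon length and had means less than 1 SD apart. Wild-type libraries had 601, 405, 642, 509.8 and 371 normalized counts. Null libraries had 467, 565, 477, 469 and 439. The null values all fell inside the wild-type range, which was wide, with a coefficient of variation of 23.4% in wild type against 9.90% in null hearts. The means were 506 ± 118 and 483 ± 47.9 (SD, n = 5 each). Their log2 fold change was −0.038 with a 95% interval of −0.39 to 0.31, or a fold of 0.764 to 1.242, and 0.056 without wild-type library 3. Of the 10 genes, *Aldh1a2* had the least certain library values. For its wild-type mean, 0.0564 other sets of counts as near to equal expression were expected by chance.

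*Crabp2* encodes the protein that hands retinoic acid to its receptors, and of the 10 genes it had the lowest log2 fold change. The gene lies at chromosome 3, 87948666 to 87953376, plus strand. The wild-type libraries had 31.3, 13.6, 56.0, 29.9 and 14.5 normalized counts. The null libraries had 19.8, 13.1, 16.1, 10.7 and 17.4. Wild-type libraries 1, 3 and 4 lay above every null library, while wild-type libraries 2 and 5 lay among them. The means were 29.1 ± 17.2 and 15.4 ± 3.58 (SD, n = 5 each). The log2 fold change was −0.71 with a standard error of 0.33 (limma, unadjusted p = 0.0449, adjusted p = 0.998), and comparing the means by exact permutation (two-sided) gave p = 0.119. It was −0.44 without wild-type library 3, with an unadjusted p of 0.131. The unadjusted p was under 0.05 in 3 of the 10 fits that left out a library (wild-type library 2 or 5, or null library 1). These values rest on 10 to 55 read pairs per library.

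**Figure D2:**
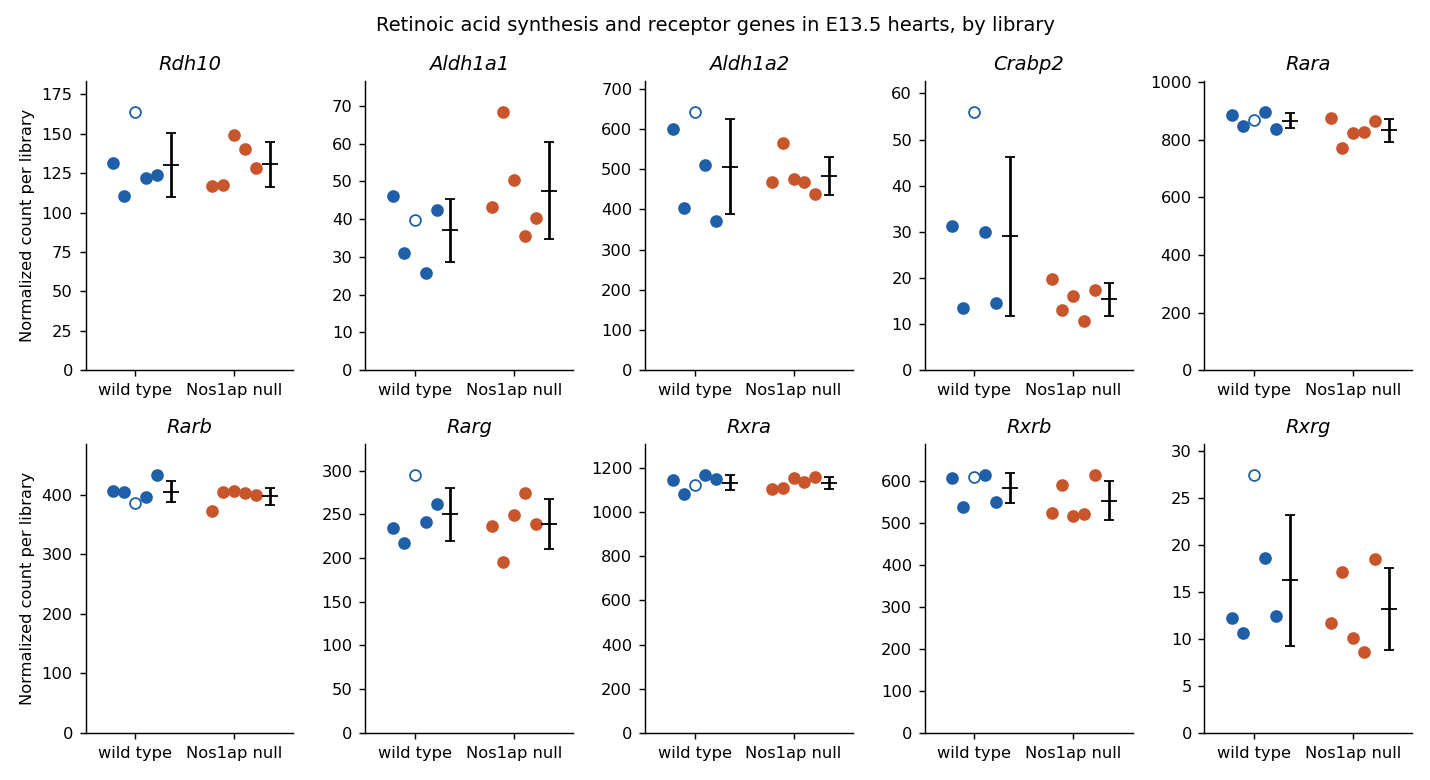
Normalized counts of the 10 genes in each library (vertical axes, from 0), with wild-type libraries in blue, null libraries in orange, wild-type library 3 as an open circle, and the mean with SD (n = 5) in black. In every panel the ranges of the genotypes overlap; the open circle is the highest wild-type point for *Rdh10*, *Aldh1a2*, *Crabp2*, *Rarg* and *Rxrg*.

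The RAR genes encode the receptors that bind retinoic acid itself. *Rara* (chromosome 11, 98927818 to 98974942, plus strand) had the narrowest spread of them relative to its level in wild type, with 885, 848, 869, 897 and 837 normalized counts. Null libraries had 876, 771, 824, 828 and 865. Null libraries 2, 3 and 4 lay below the wild-type range, and the other null values lay within it. The means were 867 ± 24.9 and 833 ± 41.1 (SD, n = 5 each), and the log2 fold change was −0.059 (95% interval −0.15 to 0.027). The lower bound of the interval was a fold of 0.904.

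*Rarb* is the receptor gene best known as a target of its own ligand. The promoter windows of the members (RefSeq, GRCm38.p6, 250 bases before to 50 bases after a start site) were searched on both strands for direct repeats of the half-site AGGTCA with a spacer of 1, 2 or 5 bases. In each half-site G was also allowed as the first base and T as the third. The table of promoters held 16 windows for 8 members. *Rdh10* and *Crabp2* were not searched. A single repeat was found, with a spacer of 5 bases, in the window of *Rarb*, 53 to 37 bases before the start site. It is shown because it joins the ligand to a member of the set, and its capitals mark the half-sites and the spacer between them, read 5′ to 3′ on the minus strand of chr14:16575507-16575535 (GRCm38).
*Rarb* element: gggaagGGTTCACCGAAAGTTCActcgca
In GENCODE M21 this stretch lies in the untranslated part of an exon of the transcripts Rarb-201 and Rarb-207 and in an intron of Rarb-203 and Rarb-204. Among all 32851 promoter windows, 32 (0.0974%) held such a repeat with a spacer of 5 bases, 73 (0.222%) with 1 base and 88 (0.268%) with 2 bases. For the other members, the search says only that these letters were not in these windows.

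The level of *Rarb* (chromosome 14, 16430839 to 16819156, minus strand) was nearly even across libraries in the counts used. These were the fitting set with the most even expression, so the evenness is partly a matter of that choice. Wild-type libraries had 406, 405, 386, 396 and 433 normalized counts. Null libraries had 373, 405, 406, 403 and 399.7. All null values but that of library 1 lay within the wild-type range. With a standard error of 0.051, the log2 fold change was −0.028, and the 95% interval ran from −0.14 to 0.079. Of the exon length of *Rarb*, 34.1% (1793 bp) overlaps exons of *Top2b* on the opposite strand. The study's methods state that reads were assigned with strand taken into account.

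*Rarg* (chromosome 15, 102234938 to 102257517, minus strand) varied more. Wild-type libraries had 234, 217, 295, 241 and 262 normalized counts, and null libraries had 237, 195, 249, 274 and 239. Wild-type library 3 was the highest of all and null library 2 the lowest. For *Rarg* the log2 fold change was −0.067 (limma, unadjusted p = 0.479), and −0.0046 without wild-type library 3. Per kb of exon, *Rara* made up 59.4% ± 1.64 of the RAR level in wild type and 59.2% ± 1.55 in null hearts, *Rarb* 23.0% ± 1.23 and 23.5% ± 1.48, and *Rarg* 17.5% ± 1.80 and 17.3% ± 1.53 (SD, n = 5 each). The makeup of the RAR pool therefore moved by less than 1 SD for each of the receptors.

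The RXR genes encode the partners of the RARs. *Rxra* (chromosome 2, 27676440 to 27762957, plus strand) had the narrowest interval of the 10 genes. Its wild-type libraries had 1143, 1079, 1124, 1168 and 1150.4 normalized counts, and its null libraries had 1102, 1107, 1154, 1136 and 1159.9. The null range lay inside that of wild type. Its log2 fold change was −0.0012 with a 95% interval of −0.070 to 0.067, so the interval held folds of 0.953 to 1.048.

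*Rxrb* (chromosome 17, 34031812 to 34038399, plus strand) had 605, 536, 608, 613 and 549 normalized counts in wild-type libraries and 523, 590.2, 517, 519.8 and 614 in null libraries. Null libraries 1, 3 and 4 lay below the wild-type range, and null library 5 lay just above it. The log2 fold change was −0.076 with a standard error of 0.060 (limma, unadjusted p = 0.218). *Rxrg* was the rarest receptor, with 12.2, 10.6, 27.5, 18.6 and 12.4 normalized counts in wild type and 11.7, 17.1, 10.1, 8.59 and 18.5 in null hearts. Wild-type library 3 was again the highest. Its log2 fold change of −0.25 (95% interval −0.88 to 0.37) became −0.052 without that library. *Rxrg* lies at chromosome 1, 167598384 to 167639623, plus strand, with 2663045 bp between it and *Nos1ap*.

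Per kb of exon, *Rxra* held 57.5% ± 1.55 of the RXR level in wild type and 58.9% ± 2.21 in null hearts, *Rxrb* 40.6% ± 1.03 and 39.5% ± 1.75, and *Rxrg* 1.94% ± 0.781 and 1.62% ± 0.475 (SD, n = 5 each). The summed RAR level was 0.927 ± 0.0242 times the summed RXR level in wild type and 0.917 ± 0.0575 times in null hearts. Single wild-type libraries had ratios of 0.897 to 0.955 and single null libraries of 0.835 to 0.966, so the ranges overlapped and the means were less than 1 SD apart.

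Levels of different genes can be compared only per length, and here they were divided by the summed exon length of GENCODE M21, whichever transcripts the hearts used. In wild type, *Aldh1a2* led with 223 ± 52.3 normalized counts per kb, followed by *Rxra* (207 ± 6.22) and *Rara* (199 ± 5.70). The first pair could not be ordered, since *Aldh1a2* was above *Rxra* in 5 of 10 libraries. *Rxra* exceeded *Rara* in 10 of 10 libraries, though their ranges overlapped in wild type. Below them came *Rxrb* (147 ± 9.19), *Rarb* (77.0 ± 3.37) and *Rarg* (58.6 ± 7.05), each above the next in 10 of 10 libraries with no overlap of the ranges in either genotype. *Rdh10* stood at 31.3 ± 4.86 and *Crabp2* at 22.0 ± 13.0, with overlapping ranges in wild type. *Aldh1a1* (7.49 ± 1.70) and *Rxrg* (7.08 ± 3.03) closed the order and overlapped in both genotypes. Receptor genes other than *Rxrg* stood above *Rdh10* in every library, and *Aldh1a2* stood far above *Aldh1a1*.

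**Figure D3:**
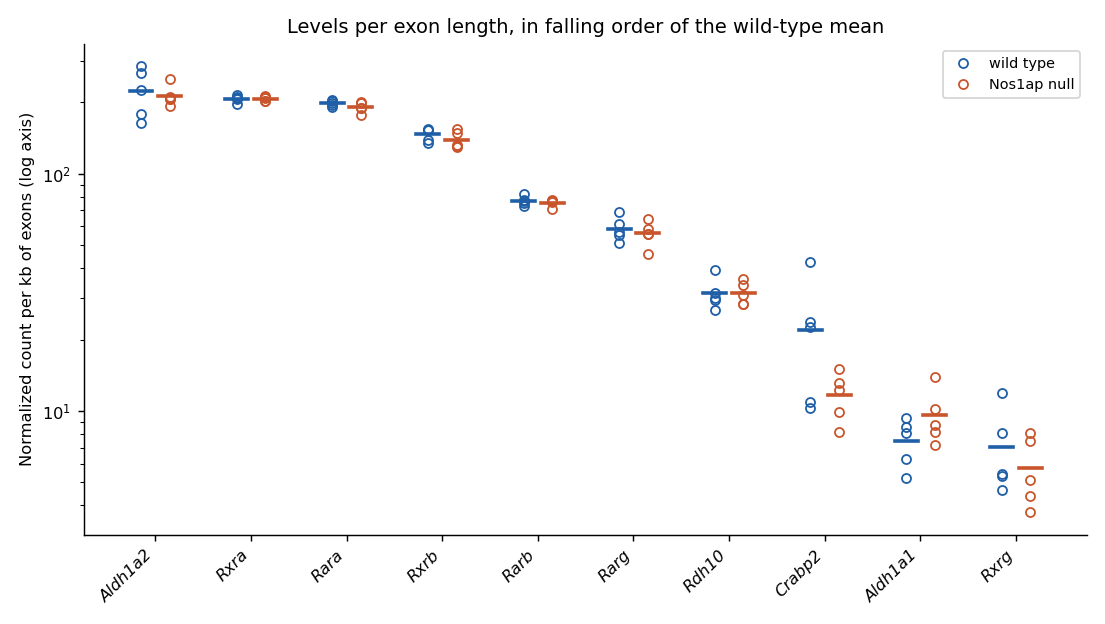
Normalized counts per kb of exons (log axis) of the 10 genes in each library, wild type in blue and null in orange, with bars at the group means, in falling order of the wild-type mean. *Aldh1a2*, *Rxra* and *Rara* sit between 164 and 284 per kb, and *Aldh1a1* and *Rxrg* sit under 14 per kb in every library.

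Libraries differed within a genotype in some members much more than in others. The coefficient of variation in wild type was 59.2% for *Crabp2* and 42.9% for *Rxrg*, but 2.87% for *Rara* and 2.997% for *Rxra*. The first pair rests on 14 to 55 and 11 to 27 read pairs per wild-type library, the second on 809 to 1017 and 1104 to 1314. Counting error is therefore larger in the first pair, and its part was not tested. For *Rara* and *Rxra* the set of counts with the most even expression was used, as it was for *Rarb*, *Rarg*, *Rxrb* and *Aldh1a2*. Wild-type library 3 was the highest wild-type library for 5 of the 10 genes (*Rdh10*, *Aldh1a2*, *Rarg*, *Rxrg* and *Crabp2*) and the lowest for *Rarb*. Against the median of the other wild-type libraries it was higher by 1.38 for *Crabp2*, 1.10 for *Rxrg*, 0.50 for *Aldh1a2*, 0.41 for *Rdh10* and 0.31 for *Rarg* on the log2 scale. The same library was high for some other retinoid genes but not for all of them. In the summed level of 11 other retinoid dehydrogenases and reductases it was the lowest wild-type library, with 2167 normalized counts against 2228 to 2310. It had 143 normalized counts of *Crabp1*, the paralog of *Crabp2*, against 42.3 to 50.7 in the other wild-type libraries. It had 18.3 of *Stra6*, the cell surface receptor for the retinol carrier, against 2.07 to 7.22. The homeobox gene *Hoxb5*, known to respond to retinoic acid, had 147 normalized counts there and 1.94 to 3.48 in the other wild-type libraries. The part of tissue other than heart in these values was not tested.

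**Figure D4:**
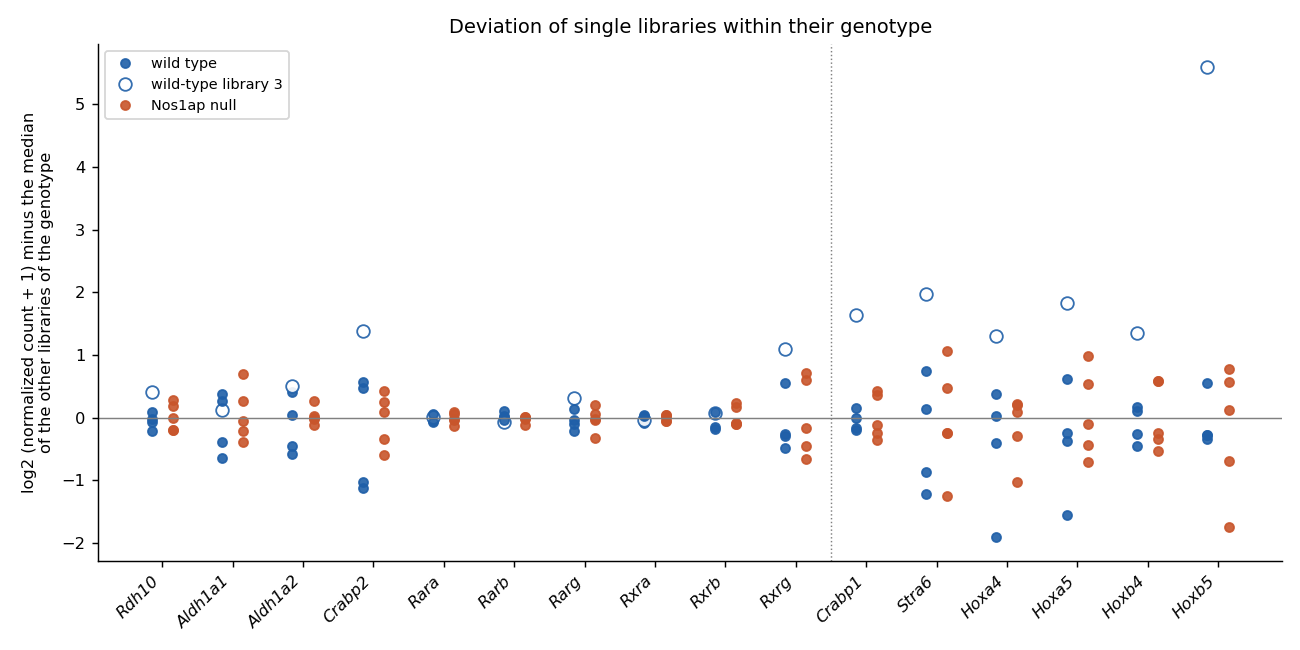
For each gene, log2 of the normalized count plus 1 in a library minus the median of the other libraries of its genotype (vertical axis), wild type in blue, null in orange and wild-type library 3 as an open circle. Members stand left of the dotted line; right of it, the open circle lies 5.59 above the median of the other wild-type libraries for *Hoxb5* and 1.63 above it for *Crabp1*.

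The rest of the pathway was taken from lists of 64 retinoid genes other than the members. Of these, 61 were in the table and 36 could be tested. None passed the threshold, 1 had an unadjusted p under 0.05 and was higher in null hearts (*Ncoa3*), and the median log2 fold change was 0.014 (−0.0047 without wild-type library 1 and 0.026 without null library 1, the lowest and highest when 1 library was left out). Counts of single libraries were not recovered in both genotypes for 11 genes, and 14 had a mean below 10 normalized counts.

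Of the genes for uptake and carriage of retinoids, 3 of 10 could be tested, and none passed. *Dgat1*, which can esterify retinol, had a log2 fold change of 0.016 and *Crabp1* one of −0.45. Without wild-type library 3 that of *Crabp1* was −0.13. The rare genes *Rbp4* and *Stra6* had lower means in null hearts but were below the minimum for the test. *Rbp4*, the carrier of retinol in blood, had 6.09, 4.84, 5.09, 6.19 and 5.17 normalized counts in wild type and 3.6, 3.02, 1.01, 3.22 and 3.27 in null hearts. These groups did not overlap, and *Rbp4* is named for that reason. Any gene with such groups has the smallest exact permutation p that 5 libraries against 5 allow (0.00794, not adjusted). Of the 10735 genes tested, 87 (0.81%) had such groups, but genes below the minimum mean were not counted there. The values of *Rbp4* stand for 1 to 7 read pairs per library. *Stra6* had 5.22, 2.90, 18.3, 7.22 and 2.07 normalized counts in wild type and 1.80, 1.01, 1.01, 3.22 and 0 in null hearts, so wild-type libraries 2 and 5 lay within the null range.

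Of the other dehydrogenases and reductases that act on retinoids, 7 of 12 could be tested and none passed. The log2 fold changes ran from −0.19 for *Rdh5* to 0.14 for *Rdh11* (limma, unadjusted p = 0.0611), and *Dhrs3*, which turns retinaldehyde back into retinol, had −0.043. That of *Rdh5* was −0.054 and that of *Dhrs3* 0.042 without null library 2. *Aldh1a3*, the third enzyme of the ALDH1A family, was rare, with 7.24 to 14.3 normalized counts in wild type and 0 to 9 in null hearts. Among the enzymes that break retinoic acid down, *Cyp26b1* had 153, 176, 180.2, 186 and 246 normalized counts in wild type and 177, 112, 242, 175 and 182 in null hearts. Its log2 fold change was −0.11, with a 95% interval of −0.53 to 0.32. Its sign rested on single libraries, since it was 0.048 without null library 2 and −0.23 without null library 3. *Cyp26a1* stood at 3.48 to 9.29 in wild type and 5.03 to 13.1 in null hearts, below the minimum for the test.

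Of the coactivators and corepressors that the receptors recruit, 8 of 13 could be tested. Of these, 7 had a log2 fold change above 0, with a median of 0.045 (0.026 without wild-type library 1). Among all 10735 genes tested, 5156 were above 0, and the median was −0.0041. *Ncoa3*, a coactivator, had 832, 788, 817, 813 and 818 normalized counts in wild type and 824, 884, 879, 901 and 823 in null hearts. Null libraries 2, 3 and 4 lay above every wild-type library. This gave a log2 fold change of 0.083 (limma, unadjusted p = 0.0475, adjusted p = 0.998). The unadjusted p was 0.0640 without wild-type library 3. *Nrip1* was at the other end with −0.021. Of the nuclear receptors other than RARs that pair with RXRs, 10 of 11 could be tested and none passed. *Pparg* had the lowest log2 fold change (−0.29) and *Nr1h4* the highest (0.22). Without null library 4 these were −0.13 and 0.071.

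Genes known to be raised by retinoic acid showed no change past the threshold. Of 19 listed, 9 could be tested. Among all 10735 genes tested, 5579 were below 0, and the median was −0.0041. For these 9 the log2 fold changes ran from −1.51 for *Hoxb5* to 0.16 for *Rarres2*, with 7 below 0 and a median of −0.15. The median was −0.092 without wild-type library 3, and leaving out other single libraries moved it from −0.24 (wild-type library 2) to −0.057 (null library 2). *Hoxb5* had 147 normalized counts in wild-type library 3, 1.94 to 3.48 in the other wild-type libraries and 0 to 3.27 in null libraries. It therefore reached the minimum mean for the test only through wild-type library 3. Its log2 fold change was −0.41 without that library. It was kept among the 9 genes there, so the medians given all include it.

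The epicardial markers were examined because *Aldh1a2* is known from that layer. Of 11 listed, 9 could be tested, with a median log2 fold change of 0.12, or 0.065 without wild-type library 5. None passed the threshold, and 2 had an unadjusted p under 0.05, both higher in null hearts. Among all 10735 genes tested, 372 (3.47%) had such a p, and the median was −0.0041. Of the 9 markers, 8 were above 0, and *Krt19* was the lowest with −0.054. *Wt1*, a transcription factor of the epicardium, had 525, 473, 589, 483 and 468 normalized counts in wild type and 566, 575, 565, 635 and 531 in null hearts. Its log2 fold change was 0.18 (limma, unadjusted p = 0.0116, adjusted p = 0.998). *Bnc1* had a log2 fold change of 0.26 (limma, unadjusted p = 0.00753, adjusted p = 0.998). The value of *Aldh1a2* was −0.038, with an interval that held those of *Wt1* and *Bnc1*.

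Across the 10 libraries, the level of *Aldh1a2* and the epicardial score, the mean log2 level of the 9 markers, had a Pearson r of 0.57 (permutation p = 0.0878) and a Spearman rho of 0.44 (permutation p = 0.205). Adjusted over the 2 relations examined, the p of r was 0.176. With wild-type libraries 2 and 5 left out, the farthest from the median score, r was −0.32, so the relation rests on those libraries. With levels centred within each genotype, r was 0.77 (permutation p = 0.00957). That p was not adjusted, and the centred r was not computed without wild-type libraries 2 and 5. Among null hearts, library 4 had the highest score (8.56) at an *Aldh1a2* level of 8.88. Null library 2 had the highest *Aldh1a2* level (9.14) at a score of 8.45, and null library 5 was lowest in both. Both genotypes have 5 libraries, too few for an r within one of them. The second relation was that of *Aldh1a2* with *Rarb*, the enzyme and a receptor gene known to respond to its product. The r was −0.44 (permutation p = 0.198) and rho −0.20 (permutation p = 0.583), and r was 0.20 without wild-type libraries 3 and 5. A relation between them was not detectable over these 10 libraries. The genes tested whose levels were most like that of *Aldh1a2* over the 10 libraries were *Creb3l1* (r = 0.94), *E030030I06Rik* (0.93), *Snrpn* (0.93), *Sfrp5* (0.93) and *Aup1* (0.93), the 5 highest of all genes tested. These are given as a description. The values share libraries and depth.

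**Figure D5:**
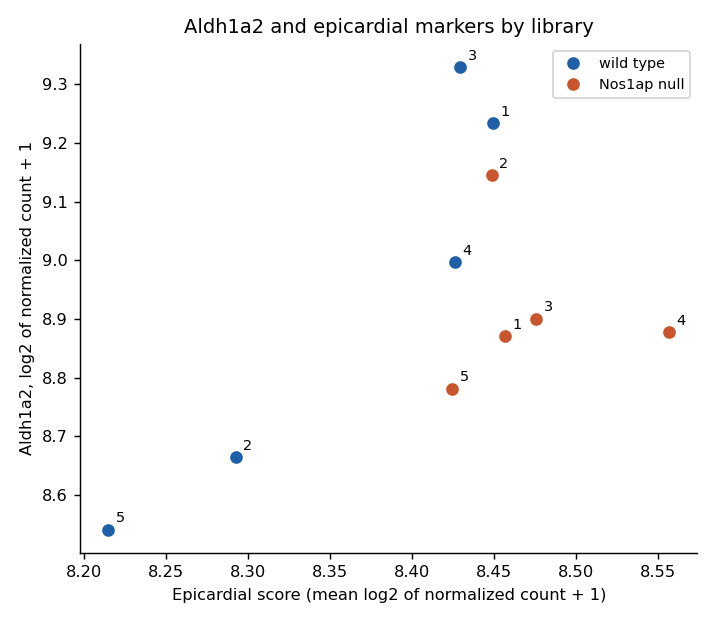
*Aldh1a2* (vertical axis) against the epicardial score (horizontal axis) in each library, both as log2 of the normalized count plus 1, wild type in blue and null in orange, with the number of the library beside each point. Wild-type libraries 2 and 5, at scores of 8.29 and 8.21, hold the low end of both axes, and null library 4 has the highest score, 8.56.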

How the data were processed

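The file analysed is the authors' comparison of 5 wild-type and 5 *Nos1ap* null libraries. Reads had been trimmed by the authors (Trimmomatic 0.36), aligned by STAR from RSEM 1.2.31 to GENCODE M10 transcripts (GRCm38) with strand taken into account, and compared in DESeq 1.24.0. The signal values that the authors deposited are normalized counts, averaged over the libraries of a genotype. The ratio, log2 and p-value columns that the authors deposited hold their own fold change, its log2 and the p-values of DESeq with and without adjustment, and none was used. Each sample's genotype is given by its title. The table names its group means A and B, and B was taken as null from the direction in which the study states the table's fold change.

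The members and lists, and the tests, were chosen with earlier results of these data known. Whole counts of single libraries were searched for each group mean, written with 15 significant digits. Below a mean of 200 all sets were searched, and where a single set fitted the mean it was used. Otherwise the set with the most even expression was used, within a limit on the other sets expected by chance. The limit was 0.1 sets, or 0.01 for means from 1000 to 1250, with no counts used above 1250. This limit was set after it was seen which members it admits. A stricter one leaves out *Aldh1a2* and *Rxra*. Counts were recovered for 99.8% of wild-type and 99.7% of null means under 1000. The search and the fit were tested on simulated data.

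Protein-coding genes with a mean of at least 10 (10735 genes) were fitted with limma 3.58.1 in R 4.3.3 on log2 of the normalized count plus 1, with trended and robust moderation and Benjamini-Hochberg adjustment over all of them. The main test was planned on these values. For single genes an exact permutation test (two-sided) ran over the 252 arrangements of 10 libraries, and correlations by 100000 permutations. The limma p-values set the mean difference between genotypes against the spread between these libraries, moderated over all genes tested. Intervals are those of the mean log2 difference and do not give the range of single libraries. Counting error is largest for *Rxrg*, *Crabp2* and *Aldh1a1*. Named genes are the members, *Nos1ap*, retinoid genes that had the largest or smallest change of their list, an unadjusted p under 0.05 or groups that did not overlap, and markers of cell types known to express a member. Genes of short lists, and the 5 genes most like *Aldh1a2*, are also named. *Dhrs3*, *Aldh1a3* and the genes high in wild-type library 3 were named after their values were seen. No value was analysed for *Adh7*, *Cyp26c1* and *Stra8*. Alternatives changed the pseudocount (0.5), the filter (none, or a mean of 50), the gene types, the weights (voom), the scaling (upper quartile), the FDR (5% with no fold threshold), the counts used and the libraries. One of the retinoid genes that this rule selects is not reported here.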

Additional observations from a re-analysis of the deposited data

Results flagged for a closer look

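In null hearts, library 1 stood apart for *Rarb*, with 372.618 normalized counts against 399.7 to 406 in the other null libraries. Its gap to the nearest library was 0.804 of the range of the 5 values. Among 22 groups of 5 libraries examined (the 10 genes and *Nos1ap* in both genotypes), this was the only one flagged, and chance flags about 1 in 20. The log2 fold change of *Rarb* was −0.028 with this library, and the flag bears on no call.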

How the results depend on the processing

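No paired analysis was possible because the group means carry no replicate numbers, so a replicate block could not be fitted. None of the 10 genes passed the threshold in any of the 19 alternatives that tested it, and none of the other retinoid genes did. The filter at a mean of 50 tested 7 of the 10 genes, leaving out *Crabp2*, *Aldh1a1* and *Rxrg*. The number of genes past the threshold over all genes tested was 2 or 3 in every alternative, against 3. Leaving out 1 library at a time moved log2 fold changes near 0 across it, from −0.14 to 0.056 for *Aldh1a2*, −0.047 to 0.095 for *Rdh10*, −0.12 to 0.0037 for *Rarg* and −0.019 to 0.0099 for *Rxra*. The cause was not tested. For *Crabp2* the range was −0.93 to −0.44, with unadjusted p from 0.00898 to 0.131, and with voom weights the unadjusted p was 0.0715. For *Aldh1a1* the range was 0.21 to 0.44, and the unadjusted p was 0.0471 without wild-type library 1 and 0.0420 without null library 4. The correlation of *Aldh1a2* with the epicardial score ran from 0.27 (without wild-type library 5) to 0.71 (without null library 4). It was 0.77 with levels centred within genotype, which was not repeated without wild-type libraries 2 and 5. That with *Rarb* was lowest, at −0.67, when null library 1 was left out and highest, at −0.088, when wild-type library 5 was. The cause was not tested. The stricter limit on recovered counts, added after seeing the data, tested 8 of the 10 genes, and requiring a single set of counts tested 4. Depth limits *Rxrg*, *Crabp2* and *Aldh1a1*, with 8 to 68 read pairs per library.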
